A study of Mus musculus with 12 samples.

Results

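A set of 9 mouse genes that have been described as targets of the microRNA miR-222-3p were followed in RAW264.7 macrophages that were given vesicles loaded with that microRNA. They are *Cdkn1b*, *Cdkn1c*, *Bbc3*, *Bmf*, *Bcl2l11*, *Timp3*, *Icam1*, *Ets1* and *Stat5a*. They were chosen as known targets of the microRNA, by a rule that uses no measured value, although earlier results of these data were known when they were chosen. They are 9 of the 35944 genes with counts assigned in these libraries. The measurement is RNA-Seq of poly(A) RNA in 12 libraries, 3 for each of 4 treatments. The question is whether the mRNA of these genes was lower in macrophages given miR-222-3p than in macrophages given a control microRNA or another mimic.

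RAW264.7 is an established mouse macrophage line of BALB/c origin that grows continuously. The extracellular vesicles (EVs) came from MS-1, a mouse endothelial line, and were loaded by electroporation with a synthetic microRNA mimic. By the study's methods a mimic pairs the mature microRNA strand with a modified carrier strand. Ctrl-EVs carried the control mimic. According to the methods this was cel-miR-67, a microRNA of the worm C. elegans without a mouse counterpart. The other groups, miR-222-3p-EVs, miR-142-5p-EVs and also miR-183-5p-EVs, carried the mimic of the mouse microRNA of that name. All 4 groups received EVs at 3 µg of protein per ml and were lysed after 48 h, so electroporated endothelial EVs are common to every group and no group without EVs was analysed here. A single cell line was used, the mimic came on top of the cells' own microRNA, and neither microRNA nor protein was measured in these libraries. Each group has replicate numbers 1, 2 and 3. The libraries held 16294611 to 22974853 estimated counts. All 8 of 8 macrophage marker genes had at least 10 counts, with a summed level of 857 to 1135 TPM (a gene's estimated transcripts, corrected for length and scaled to the same total in every library), against 4.71 to 9.72 TPM for 8 endothelial markers, of which 4 were detected. The 4 libraries of number 2 differed from the other 8 in many genes, as described for the members further on, and what the number stands for is not given.

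MicroRNAs guide an Argonaute complex to mRNAs. They pair through their seed, the bases near the 5′ end, with complementary stretches that lie mostly in 3′ untranslated regions (UTRs). Pairing can lower translation and can shorten the life of the mRNA, and only the latter is visible in mRNA counts. MiR-222-3p is made from the same X-chromosomal cluster as its relative miR-221-3p. The pair is known above all for targeting the cell cycle inhibitors p27 and p57, several pro-apoptotic BH3-only proteins and the protease inhibitor TIMP3.

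The mature microRNAs are shown 5′ to 3′ as given by RefSeq for GRCm38.p6, with the seed (bases 2 to 8) in capitals, because every site described afterwards is defined by these letters. MiR-222-3p lies at chrX:19146901-19146923 and miR-221-3p at chrX:19146307-19146329, both on the minus strand. They share the seed, whereas the other mimics have seeds of their own.
miR-222-3p: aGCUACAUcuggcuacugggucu
miR-221-3p: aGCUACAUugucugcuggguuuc
miR-142-5p: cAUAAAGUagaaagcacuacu
miR-183-5p: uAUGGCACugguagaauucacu

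The best match to the miR-222-3p seed in each member follows, on the coding strand, with up to 11 or 12 bases of the 3′ UTR on either side and the matched letters in capitals. An 8mer is ATGTAGCA, a 7mer-m8 is ATGTAGC, a 7mer-A1 is TGTAGCA and a 6mer is TGTAGC, each counted once as its longest form and searched on the transcript strand only. The transcript is the one with the highest mean TPM among the gene's coding transcripts with an annotated stop codon, and coordinates are those of the match in GRCm38.
Cdkn1b-202, 8mer, chr6:134924431-134924438, plus strand: aaaagcattggATGTAGCAttgcgcaatta
Cdkn1c-202, 8mer, chr7:143458925-143458932, minus strand: acctttcgttcATGTAGCAggaaccggaga
Bbc3-201, 8mer, chr7:16317331-16317338, plus strand: ttttctgcaccATGTAGCAtactggactgc
Bmf-201, 8mer, chr2:118528944-118528951, minus strand: gacccagcgagATGTAGCAtttccttcatc
Bcl2l11-205, 8mer, chr2:128162366-128162373, plus strand: gaacccagcgtATGTAGCAtttgtattgca
Ets1-201, 8mer, chr9:32756950-32756957, plus strand: atacactggaaATGTAGCAgcattgctgca
Timp3-201, 7mer-m8, chr10:86348285-86348291, plus strand: taaaatcatttATGTAGCtgagacacttt
Stat5a-202, 7mer-A1, chr11:100884853-100884859, plus strand: ggcgaaaaaccTGTAGCAcacaaaacctg
Icam1-201, 6mer, chr9:21028089-21028094, plus strand: gggatgcacactTGTAGCctcagagctaag

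Of the 9 members, 6 held an 8mer, and 8 of 9 held an 8mer or a 7mer, in the 3′ UTR of their most expressed transcript. Of 13086 coding genes that passed the filter on low counts, 3.3% had an 8mer and 15.4% had an 8mer or a 7mer in the corresponding transcript, with a median 3′ UTR of 890 bases. The members were chosen as known targets of this microRNA, so these shares are no test of them. In these transcripts the 3′ UTRs of *Cdkn1b*, *Bmf*, *Bcl2l11*, *Timp3* and *Ets1* were also longer, at 3395 to 4218 bases. For *Cdkn1b* this holds for Cdkn1b-202, with 45.1% of the gene's mean TPM. Cdkn1b-203 (36.4%) and Cdkn1b-201 (18.5%) have 3′ UTRs of 1087 and 1280 bases. *Icam1*, which codes for an adhesion molecule, had a 6mer only. A match is a description of the letters and does not show that the site is used. *Cdkn1b* carried 3 matches of 7 or 8 bases within a short stretch, and *Bcl2l11* carried 3 that were spread over its 3′ UTR of 4218 bases. Some of the same transcripts also held seed matches of 7 or 8 bases for the other mimics. There was 1 for miR-142-5p in *Bmf* and in *Stat5a*, and for miR-183-5p 1 in *Cdkn1b* and 3 in *Timp3*. The share of all genes with such matches was not counted.

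**Figure D1:**
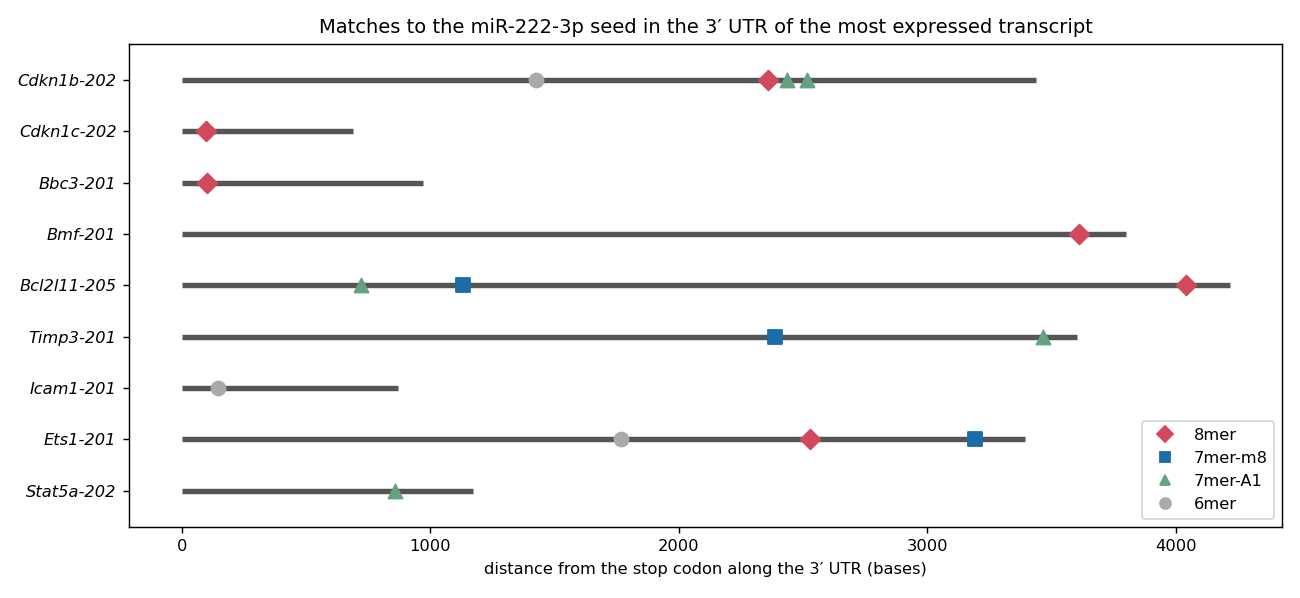
Each grey line is the 3′ UTR of the member's most expressed coding transcript, drawn to scale from the stop codon in bases, and each marker is a match to the miR-222-3p seed, with its kind given by shape and colour. Of the 9 members, 8 hold a match of 7 or 8 bases, and Icam1 holds a 6mer only.

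The transcripts that carry a match of 7 or 8 bases made up most of the coding TPM of nearly every member. The share was 100% in every library for *Cdkn1b*, *Cdkn1c*, *Bbc3* and *Stat5a*, counted over coding transcripts with an annotated stop codon. It was 93.1% to 100% for *Bmf*, 83.0% to 93.5% for *Bcl2l11* and 46.2% to 100% for *Ets1*. *Timp3* is left out of this comparison, since its counts were too few to divide among transcripts. *Cdkn1c* and *Ets1* had few counts too, so their shares are uncertain. The tests sum all transcripts of a gene, and for some members the share over all of them was lower. Bbc3-201 made up 60.5% to 78.5% of the TPM of *Bbc3*, and Bmf-201 59.5% to 83.0% of that of *Bmf*. For *Cdkn1c* in ctrl-EVs number 3, transcripts with a match had 0.137 of 1.24 TPM.

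The members were expressed at very different levels in these macrophages. Over 12 libraries *Cdkn1b* had the highest mean, 63.8 ± 14.1 TPM (SD, n = 12). It was followed by *Bmf* at 50.5 ± 7.61, *Icam1* at 49.2 ± 12.5, *Bcl2l11* at 39.1 ± 14.9 and *Bbc3* at 36.4 ± 5.15 TPM. The ranges of neighbours among these 5 genes overlapped. *Stat5a*, at 12.1 ± 1.85 TPM, lay below them in every library (9.33 to 15.1, against a lowest value of 23.0 in *Bcl2l11*). *Cdkn1c* (0.364 to 2.91 TPM), *Ets1* (0.138 to 0.647 TPM) and *Timp3* (0.0153 to 0.284 TPM) were near the limit of detection, and the ranges of these neighbours overlapped as well. *Cdkn1c* had 9 to 42 estimated counts per library, *Ets1* had 10 to 34 and *Timp3* had 1 to 9. *Timp3* alone failed the filter of at least 10 counts in at least 3 libraries, so 8 of the 9 members entered the tests.

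**Figure D2:**
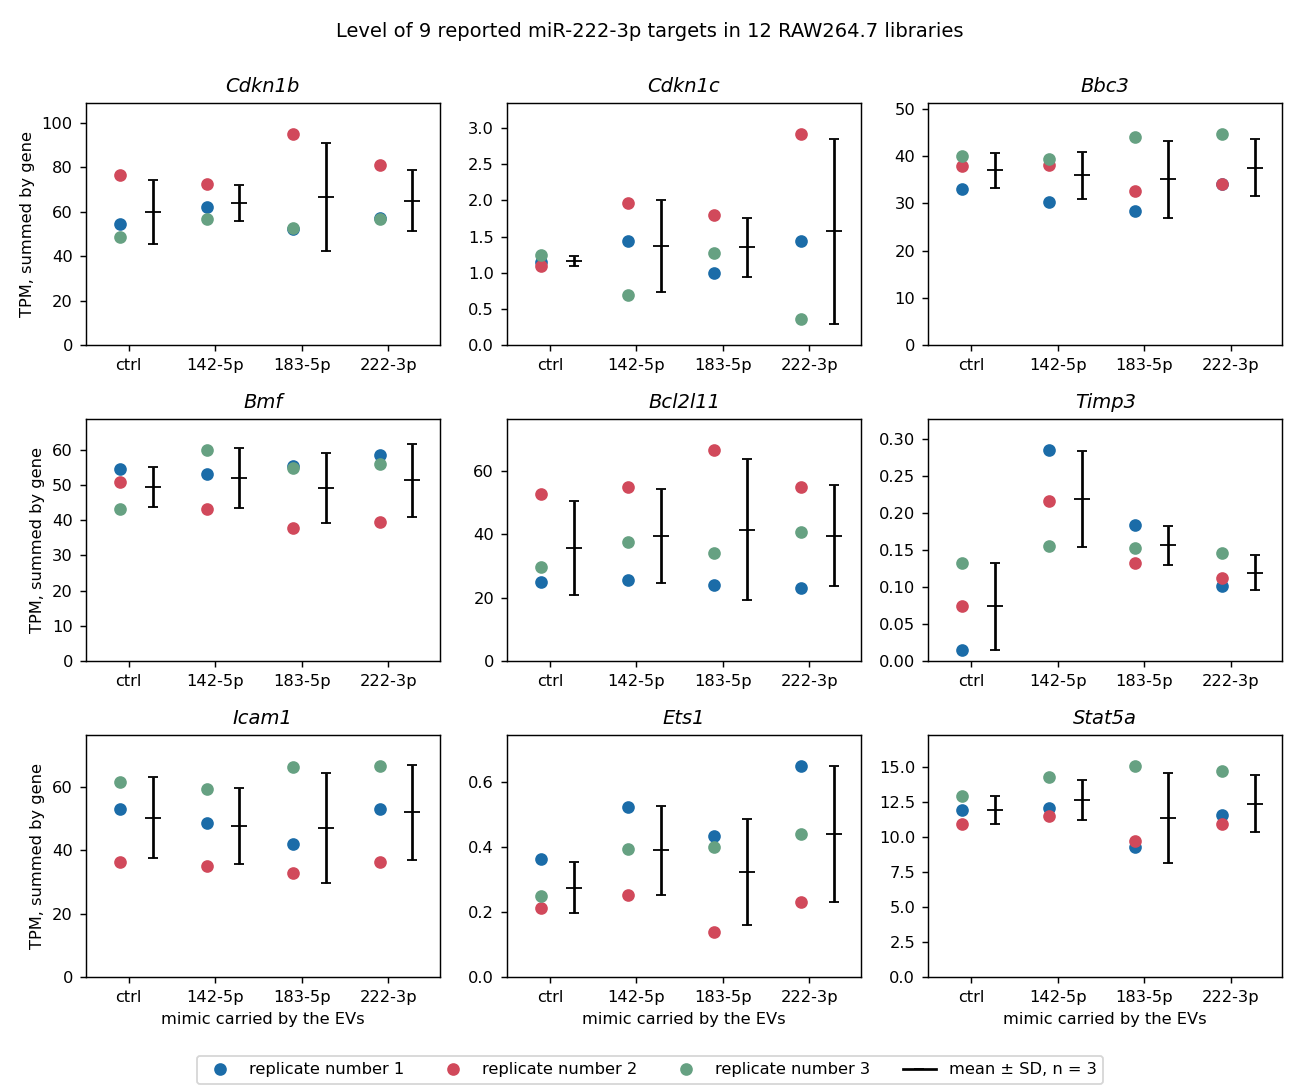
Each panel shows one gene, with TPM summed by gene on the vertical axis (each panel has its own scale from 0) and the mimic carried by the EVs on the horizontal axis; points are libraries coloured by replicate number, and the bar beside them is the mean ± SD of 3 libraries. The 3 miR-222-3p-EVs libraries overlap the range of the 3 ctrl-EVs libraries in every panel, and the number 2 libraries are the highest ones for Cdkn1b and Bcl2l11.

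None of the 8 tested members passed the test between miR-222-3p-EVs and ctrl-EVs. At an adjusted p under 0.05 in DESeq2 with the replicate number as a block, 0 of 8 members were called, against 5 of 13923 genes tested, or 0.0359%. That number of genes changed with single libraries, rising to 93, 40 and 18 without ctrl-EVs number 3, 2 and 1, while the number of members stayed at 0. None of the 8 had an unadjusted p under 0.05 either, against 6.54% of all genes, and edgeR called 0 members and 0 genes. The lowest adjusted p among the members was 0.9275 (DESeq2). Of the 8, 7 had a fitted log2 fold change above 0 and 1 had one below 0, with a median of 0.05 against 0.00 over all genes. No member was lower than its same-numbered ctrl-EVs library in all 3 numbers, a pattern seen in 12.7% of all genes. In normalised counts *Cdkn1b* and *Ets1* were higher in 3 of 3 numbers, as were 12.6% of all genes, although the estimated counts of *Ets1* were tied in number 2.

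For the 6 members with at least 50 normalised counts on average, the fit left room for small differences only. The lower ends of their 95% Wald intervals lay between −15.2% and −8.67%, and the upper ends between 15.2% and 27.3%. This precision came with the block. Without it, the lower ends lay between −47.0% and −18.6%, and again 0 of 8 members were called, beside 0% of all genes. The intervals of *Cdkn1c* and *Ets1*, which had few counts, were much wider.

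**Figure D3:**
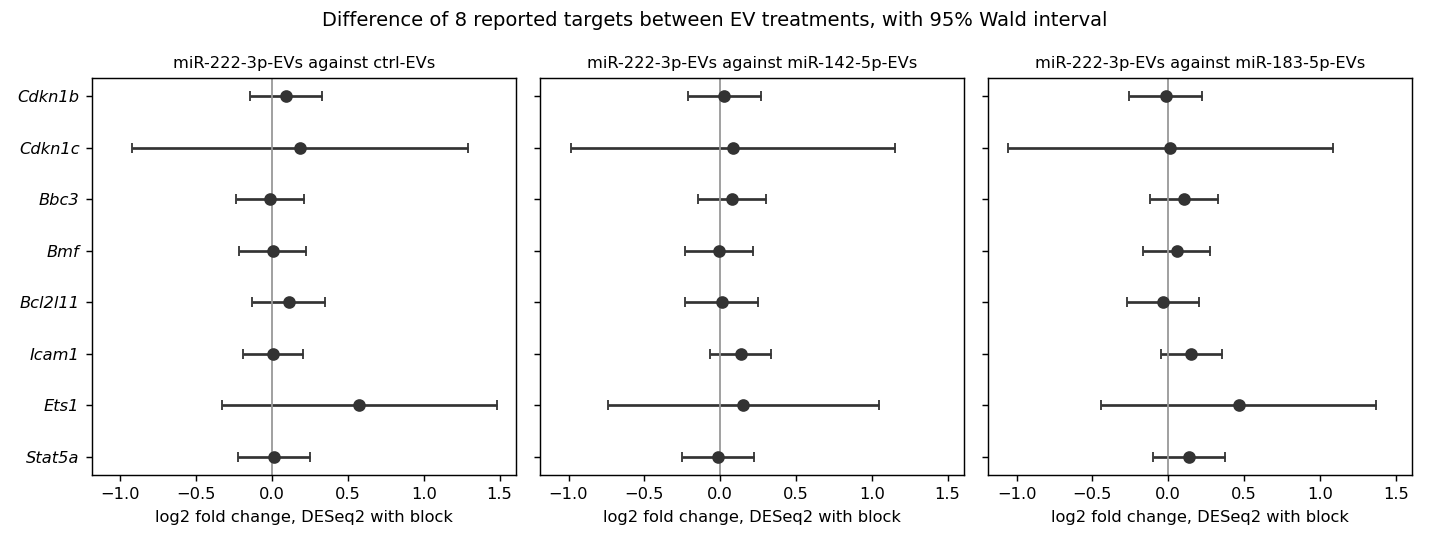
Log2 fold change (horizontal axis) of the 8 tested members in miR-222-3p-EVs against ctrl-EVs (left), miR-142-5p-EVs (middle) and then miR-183-5p-EVs (right), from DESeq2 with the replicate block; points are estimates from 3 libraries a group and bars are 95% Wald intervals. Every interval includes 0, and those of Cdkn1c and Ets1 are the widest.

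The cyclin-dependent kinase inhibitors come first, since p27, the product of *Cdkn1b*, is the best known target of this microRNA. *Cdkn1b* (chr6:134920401-134925513, plus strand) had 2274, 3439 and 2096 normalised counts in ctrl-EVs numbers 1, 2 and 3. In miR-222-3p-EVs it had 2409, 3852 and 2145. The groups overlapped, and within each number the miR-222-3p-EVs library was the slightly higher one. The log2 fold change was 0.09 ± 0.12 (SE), with a 95% interval of −9.68% to 25.9% and an adjusted p of 0.964 (DESeq2).

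*Cdkn1c* (chr7:143458339-143461050, minus strand) codes for p57, a relative of p27 that is imprinted and best known from development. Ctrl-EVs had 17, 25 and 9 estimated counts for *Cdkn1c*, and miR-222-3p-EVs had 27, 42 and 9. Normalised counts, which also correct for transcript length, were 19.3, 19.7 and 21.3 against 24.2, 55.3 and 5.49. Number 3 was tied in the first and lower with miR-222-3p-EVs in the second. The groups overlapped, and the fit gave *Cdkn1c* a log2 fold change of 0.18 ± 0.57 (SE), with an adjusted p of 0.991 (DESeq2). It was 0.53 without the length correction, −0.35 without ctrl-EVs number 2, −0.34 without miR-222-3p-EVs number 2 and 0.72 without miR-222-3p-EVs number 3. The interval ran from −47.4% to 145%, so that neither a loss nor a gain of moderate size was detectable at this depth. An antisense gene, *Gm44732*, overlaps *Cdkn1c*, and whether the counting used strand is not stated.

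The next 3 members code for BH3-only proteins, which set off apoptosis by binding the anti-apoptotic BCL2 proteins or by activating BAX and BAK. *Bbc3* (chr7:16308393-16318205, plus strand) codes for PUMA, the p53-induced member of this class. It had 611, 759 and 765 normalised counts in ctrl-EVs and 637, 720 and 748 in miR-222-3p-EVs. It was the only tested member with a fitted value below 0, a log2 fold change of −0.01 ± 0.11 (SE) whose interval ran from −15.2% to 15.6%. The miR-222-3p-EVs library was lower in 2 of 3 numbers.

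*Bmf* (chr2:118528757-118549687, minus strand) codes for a BH3-only protein that is held at the cytoskeleton in healthy cells. Its normalised counts were 2624, 2637 and 2144 in ctrl-EVs and 2849, 2165 and 2441 in miR-222-3p-EVs. The order within numbers was mixed, lower in number 2 and higher in numbers 1 and 3. The log2 fold change was 0.00 ± 0.11 (SE), with an interval of −14.1% to 16.9%.

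*Bcl2l11* (chr2:128126038-128162547, plus strand) codes for BIM, which binds all the anti-apoptotic family members and is needed to remove blood cells that have lost their survival signal. It had 1387, 3173 and 1700 normalised counts in ctrl-EVs and 1294, 3498 and 2064 in miR-222-3p-EVs. The difference between numbers was far larger than that between treatments. The log2 fold change was 0.11 ± 0.12 (SE), with an interval of −8.67% to 27.3% and an adjusted p of 0.957 (DESeq2). Without the block the interval for *Bcl2l11* widened to −47.0% to 126%.

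*Timp3* and *Icam1* act outside the cell. *Timp3* (chr10:86300372-86349506, plus strand) codes for a matrix-bound inhibitor of metalloproteinases and of the TNF-releasing protease ADAM17. Its estimated counts were 1, 4 and 1 in ctrl-EVs and 6, 6 and 1 in miR-222-3p-EVs. In miR-142-5p-EVs they were 3, 4 and 1, and in miR-183-5p-EVs they were 5, 7 and 9. In normalised counts, miR-222-3p-EVs had 2.535, 2.965 and 3.295, miR-142-5p-EVs 6.858, 5.981 and 3.567, and miR-183-5p-EVs 4.5, 3.759 and 3.473. There miR-222-3p-EVs was lower in 3 of 3 numbers than each other mimic, and in 1 of 3 than ctrl-EVs. The estimated counts do not share this order. With 48 estimated counts over all 12 libraries, no fold change is given and a difference was not detectable at this depth. The gene also overlaps *Syn3* on the opposite strand, with which its transcripts share a near-identical stretch, and its few reads are therefore of uncertain origin.

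*Icam1* (chr9:21015985-21028817, plus strand) codes for the adhesion molecule to which leukocytes bind through their β2 integrins, and it is switched on by inflammatory signals. It had 1798, 1324 and 2136 normalised counts in ctrl-EVs and 1805, 1405 and 2035 in miR-222-3p-EVs. The groups covered almost the same range. The log2 fold change was 0.01 ± 0.10 (SE), with an interval of −12.6% to 15.2%. An antisense gene, *Gm47079*, overlaps it.

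The last pair are transcription factors. *Ets1* (chr9:32636221-32757820, plus strand) codes for the founding member of the ETS family, and is best known from lymphocytes and endothelial cells. It had 19, 14 and 17 estimated counts in ctrl-EVs and 34, 14 and 27 in miR-222-3p-EVs. In normalised counts these were 20.4, 12.9 and 14.4 against 36.6, 14.7 and 22.2, so that number 2 was close to a tie. The log2 fold change was 0.57 ± 0.46 (SE), the largest fitted value among the tested members, with an adjusted p of 0.9275 (DESeq2). Its interval of −20.6% to 179% did not separate it from 0. An antisense gene, *Gm27240*, overlaps *Ets1*. Since *Ets1* is an endothelial gene too, the 4.71 to 6.98 summed TPM of endothelial markers in ctrl-EVs stand beside 5.40 to 9.72 in miR-222-3p-EVs, and their part in this value was not tested.

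*Stat5a* (chr11:100859351-100885169, plus strand) codes for a transcription factor activated by the receptors for GM-CSF and other cytokines. Its normalised counts were 603, 594 and 671 in ctrl-EVs and 588, 628 and 670 in miR-222-3p-EVs, and the groups covered nearly the same range. The log2 fold change was 0.01 ± 0.12 (SE), with an interval of −14.4% to 18.9%. *Stat5a* shares near-identical stretches with its neighbour *Stat5b*, and its end overlaps *Stat3*, so that part of its count may belong to either.

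The remaining mimics served as a check of specificity. These comparisons share the miR-222-3p-EVs libraries with the comparison against ctrl-EVs, so they are not independent of it. Some members also hold a seed match for the other mimic, as listed with the sites. Against miR-142-5p-EVs 0 of 8 members were called (0.0215% of all genes), with 6 fitted values above 0 and 2 below, and a median of 0.05. Against miR-183-5p-EVs 0 of 8 were called (0% of all genes), again with 6 above 0 and 2 below, and a median of 0.08. Against the mean of both groups 0 of 8 were called (0.0215% of all genes), with 7 above 0. Of the 6 well measured members, 2 had fitted values below 0 in each single comparison, *Bmf* and *Stat5a* against miR-142-5p-EVs and *Cdkn1b* and *Bcl2l11* against miR-183-5p-EVs. All 4 lay between −0.03 and −0.01 on the log2 scale.

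*Icam1* had the lowest unadjusted p among the members in the comparisons with the other mimics. It had 1600, 1328 and 1838 normalised counts in miR-142-5p-EVs and 1400, 1310 and 2033 in miR-183-5p-EVs. The same-numbered miR-222-3p-EVs library was the higher one in 3 of 3 numbers each time, as were 11.9% of all genes against miR-142-5p-EVs and 13.8% against miR-183-5p-EVs. Against the mean of both groups its log2 fold change was 0.14 ± 0.09 (SE), with an unadjusted p of 0.101 and an adjusted p of 0.9999 (DESeq2). The interval ran from −1.94% to 24.5%. For the other mimics against ctrl-EVs, *Icam1* had log2 fold changes of −0.13 ± 0.10 (miR-142-5p-EVs) and −0.15 ± 0.10 (miR-183-5p-EVs), with adjusted p of 0.951 and 0.580 (DESeq2).

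The largest differences among the members followed the replicate number and not the mimic. *Bcl2l11* had 3173 to 4362 normalised counts in the 4 libraries of number 2 and 1294 to 2064 in the other 8. *Cdkn1b* had 3383 to 4645 in number 2 and 2003 to 2530 in the others. In both genes every number 2 library lay above all the rest, whichever EVs the cells had received. How many of all genes show such a separation was not counted. In the same DESeq2 model, number 2 against the mean of numbers 1 and 3 gave log2 fold changes of 1.19 ± 0.09 for *Bcl2l11* (adjusted p = 3.19e-37) and 0.78 ± 0.09 for *Cdkn1b* (adjusted p = 9.5e-17). In this contrast 6 of 8 members were called, 4 higher and 2 lower, beside 64.1% of all genes. The median absolute log2 fold change over all genes tested was 0.457, so a shift with number 2 was not particular to the members. Leaving out 1 library at a time, 3 to 6 members were called, with 3 without miR-222-3p-EVs number 3. *Icam1* was lower in number 2, by a log2 fold change of −0.44 ± 0.08 (adjusted p = 4.54e-08, DESeq2), with 1310 to 1405 normalised counts against 1400 to 2136. This contrast was chosen after the data were seen. Its p-values rest on the spread between libraries within numbers. They do not measure how much one number differs from another in general.

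The estimated make-up by transcript also differed with the replicate number. Cdkn1b-202 has a 3′ UTR of 3439 bases and Cdkn1b-201 one of 1280 bases, and the stretch with the 8mer and both 7mers is common to them and to Cdkn1b-203. Cdkn1b-202 was estimated at 36.2 to 63.5 TPM in number 2 and at 11.3 to 28.7 TPM in the other libraries. Cdkn1b-201 went the other way, with 10.2 TPM in ctrl-EVs number 2, 0 TPM in number 2 of the other 3 groups, and 8.99 to 24.3 TPM in the remaining libraries. For *Bcl2l11* the leading transcript Bcl2l11-205 was at 27.1 to 32.6 TPM in number 2 and 12.6 to 25.9 TPM elsewhere. One of its noncoding transcripts was at 3.49 to 4.79 TPM in number 2 and 0.256 to 1.63 TPM elsewhere. These are Salmon's estimates of how reads divide among overlapping transcripts, given as description without a test.

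**Figure D4:**
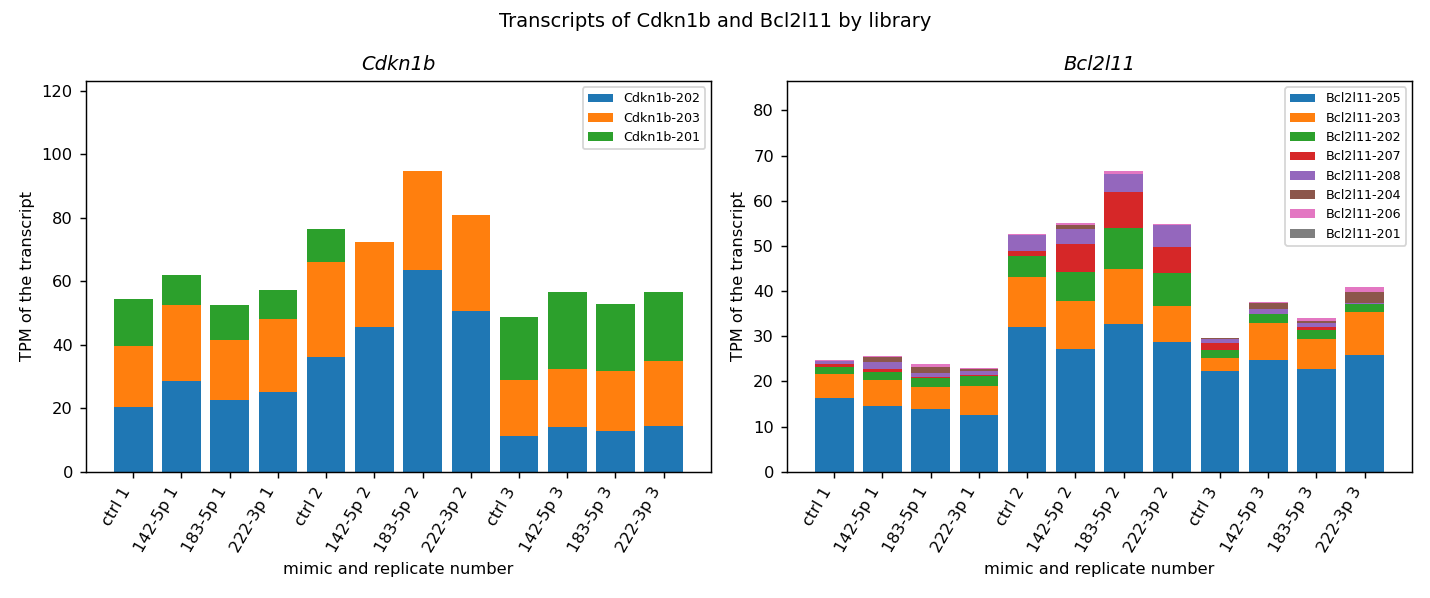
Bars show TPM for Cdkn1b (left) and Bcl2l11 (right) in each of the 12 libraries, ordered by replicate number and then by mimic, and stacked by transcript. The 4 bars of number 2 are the tallest in both panels, and Cdkn1b-202 fills the largest part of them.

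Genes that work with the members, and further described targets, showed no called difference either. In all, 7 lists hold 92 genes, of which 82 were tested, and 0 were called in any of the 4 comparisons with miR-222-3p-EVs. Over all genes the share called was 0.0359% against ctrl-EVs and 0% to 0.0215% in the other comparisons, so 0 calls say little about these lists. In the list of cell cycle entry, where the CDK inhibitors act, 17 of 19 genes were tested and 6 had a value below 0 against ctrl-EVs, with a median of 0.04. The cyclin D partner *Cdk4* had a log2 fold change of −0.09 ± 0.09 (SE) and the kinase subunit *Cks1b* one of −0.17 ± 0.10. In the BCL2 family, 9 of 12 were tested, 5 were below 0 and the median was −0.04. The effector *Bax* had −0.07 ± 0.10 and the anti-apoptotic *Bcl2l1* −0.12 ± 0.09 (SE).

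Among metalloproteinases and their inhibitors 13 of 15 genes were tested, 7 were below 0 and the median was −0.06. The sheddases *Adam10* and *Adam15* had log2 fold changes of −0.18 ± 0.09 and −0.06 ± 0.10 (SE). In the ETS family all 13 of 13 were tested, 6 were below 0 and the median was 0.02, with −0.29 ± 0.11 for *Ets2* (adjusted p = 0.529, DESeq2) and −0.13 ± 0.15 for the macrophage factor *Spi1*. Of the partners of ICAM1, 9 of 10 were tested, 4 were below 0 and the median was 0.04. The membrane linker *Msn* had a log2 fold change of 0.00 ± 0.09, and *Itgb2*, the β chain of the integrins that bind ICAM1, had 0.09 ± 0.11 (SE). In the STAT5 pathway 13 of 13 were tested, 4 were below 0 and the median was 0.05, with 0.01 ± 0.08 for the kinase *Jak1* and −0.16 ± 0.14 for the receptor chain *Il2rg*.

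A last list held 10 more genes described as targets of miR-221 or miR-222, of which 8 were tested, 4 were below 0 and the median was 0.04. The stress-induced mTORC1 inhibitor *Ddit4* had a log2 fold change of 0.36 ± 0.17 (adjusted p = 0.728, DESeq2), and the phosphatase subunit *Ppp2r2a* had −0.01 ± 0.12.

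Correlations between members were taken across the 12 libraries once the mean of each replicate number was removed. They describe libraries that share numbers and depth, and they carry no test. The highest values among the 6 members with at least 50 normalised counts are named first. *Bbc3* and *Icam1* had a Pearson r of 0.831, *Cdkn1b* and *Bcl2l11* 0.786, *Icam1* and *Stat5a* 0.762, and *Bbc3* and *Stat5a* 0.639. All remaining pairs lay between −0.394 (*Cdkn1b* and *Bmf*) and 0.116 (*Bbc3* and *Bmf*), so the members did not vary together as a set. Leaving out 1 library at a time, the lowest r for *Bbc3* and *Icam1* was 0.746. The other high values rested in part on single libraries. Without miR-183-5p-EVs number 1 they were 0.262 for *Icam1* with *Stat5a* and 0.353 for *Bbc3* with *Stat5a*, and without miR-183-5p-EVs number 2 the value for *Cdkn1b* with *Bcl2l11* was 0.436. Among 10867 genes the most alike in this sense were *Junb* (r = 0.953) and *Wdr18* (0.916) for *Bbc3*, *Ier2* (0.923) and *Ptp4a3* (0.892) for *Icam1*, and *Pdcd7* (0.954) and *Mre11a* (0.949) for *Cdkn1b*. For *Bcl2l11* they were *Ubxn4* (0.944) and *Atp2a2* (0.943), for *Bmf* they were *Trim2* (0.954) and *Tnks1bp1* (0.927), and for *Stat5a* they were *Rrm2* (0.929) and *Cxxc5* (0.867). Leaving out the 2 libraries farthest from the member's median lowered the last of these to 0.526 and that of *Ptp4a3* to 0.704. It lowered that of *Rrm2* to 0.786, and the remaining ones then lay between 0.845 (*Ubxn4*) and 0.935 (*Trim2*). Each gene was picked as one of the 2 highest among 10867, so a high r follows in part from the picking.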

How the data were processed

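Per the labels and the study's methods, poly(A) RNA was made into stranded libraries and reads were quantified with Salmon against Ensembl cDNA and noncoding RNA. The labels name GRCh38, a human build, but the transcripts are mouse ones and were read as such. The deposited estimated counts and TPM per transcript were summed to genes here by the mouse annotation (GENCODE, GRCm38), which held 98.3% of 118783 transcripts; 0.57% to 0.642% of counts had no match. Estimated counts were rounded to whole numbers. DESeq2 1.42.0 in R 4.3.3 was fitted to all 12 libraries with group, replicate number and a length offset. It was run on the 13923 genes with at least 10 counts in 3 libraries. Its p-values were adjusted by Benjamini-Hochberg after DESeq2's own filter on mean counts, which can leave genes without an adjusted p. Such genes count as not called in the shares of all genes. Alternatives used edgeR 4.0.16 and limma 3.58.1. Normalised counts are DESeq2's, corrected for depth and length. The number was used as a block because libraries with the same number deviated together from their group means (r = 0.608 on average, 0.409 to 0.797 over 18 pairs); the labels give the number in the sample titles and do not say whether samples came from separate cultures, so p-values measure only the spread between these samples. Intervals are Wald intervals of the fit. Near-identical stretches are BLAST 2.17.0 matches of at least 150 bases and 95% identity to another gene's transcripts. All members were named; of each list, every called gene and the 2 with the highest mean TPM; and for each member with at least 50 normalised counts, the 2 genes most alike. Members and lists were chosen with earlier results of these data known.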

Additional observations from a re-analysis of the deposited data

How the results depend on the processing

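Under every alternative run, 0 members were called in the 4 comparisons with miR-222-3p-EVs. Of 504 refitted log2 fold changes of single members, 421 kept their sign and 83 turned it, and 0 passed the threshold.

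The number of genes called changed more. Without the replicate block (no pairing by number) it was 0 against ctrl-EVs in place of 5, 1 against miR-142-5p-EVs in place of 3 and 0 against the mean of both mimics in place of 3. With edgeR or with limma on log2(TPM + 1) or log2(TPM + 0.1) it was 0 in each of these. With no filter on counts it was 25 against ctrl-EVs, 24 against miR-142-5p-EVs, 20 against miR-183-5p-EVs (in place of 0) and 24 against the mean. With the compared groups only it was 1 in each single comparison. Leaving out libraries gave 2 to 93 genes against ctrl-EVs (93 without ctrl-EVs number 3, 40 without its number 2, 18 without its number 1, 20 without number 2 of all groups), 0 to 2 against miR-142-5p-EVs, 0 to 8 against miR-183-5p-EVs and 0 to 4 against the mean. The cause was not tested.

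The following signs turned, as log2 fold changes, where limma at 1 or at 0.1 names the value added to TPM and the length offset corrects counts for transcript length. Against ctrl-EVs, *Bbc3* was 0.036 without the length offset, 0.014 with limma at 1 and with limma at 0.1 and without number 2. *Bmf* was −0.0089 with edgeR and with TMM factors, −0.054 without the length offset, −0.00092 without the filter. *Cdkn1c* was −0.64 without number 2. *Icam1* was −0.0038 without the block, −0.0074 with edgeR, −0.0076 with TMM factors, −0.031 without number 2. *Stat5a* was −0.019 without number 2. Against miR-142-5p-EVs, *Bcl2l11* was −0.011 with limma at 1, −0.012 with limma at 0.1. *Bmf* was 0.035 without number 2. *Cdkn1b* was −0.044 without number 2. *Cdkn1c* was −0.019 without the length offset, −0.078 with limma at 0.1, −0.30 without number 2, −0.051 with the compared groups only. *Stat5a* was 0.0016 without number 2. Against miR-183-5p-EVs, *Bcl2l11* was 0.12 without number 2. *Bmf* was −0.021 without the length offset. *Cdkn1b* was 0.13 without number 2. *Cdkn1c* was −0.13 with limma at 0.1, −0.48 without number 2, −0.088 with the compared groups only. Against the mean, *Bcl2l11* was 0.064 without number 2. *Bmf* was −0.036 without the length offset. *Cdkn1b* was −0.0057 without the block, −0.015 without the length offset. *Cdkn1c* was −0.11 with limma at 0.1, −0.39 without number 2, −0.016 with the compared groups only. For number 2 against numbers 1 and 3, *Bbc3* was −0.026 with limma at 1, −0.027 with limma at 0.1. *Bmf* was 0.10 without the length offset. *Stat5a* was 0.021 without the length offset.

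Leaving out single libraries gave these ranges for members that turned sign: against ctrl-EVs −0.081 to 0.044 (*Bbc3*), −0.11 to 0.13 (*Bmf*), −0.35 to 0.72 (*Cdkn1c*), −0.048 to 0.046 (*Icam1*), −0.026 to 0.071 (*Stat5a*), against miR-142-5p-EVs −0.089 to 0.062 (*Bcl2l11*), −0.078 to 0.072 (*Bmf*), −0.078 to 0.11 (*Cdkn1b*), −0.45 to 0.58 (*Cdkn1c*), −0.068 to 0.011 (*Stat5a*), against miR-183-5p-EVs −0.14 to 0.13 (*Bcl2l11*), −0.0091 to 0.12 (*Bmf*), −0.12 to 0.17 (*Cdkn1b*), −0.54 to 0.55 (*Cdkn1c*), against the mean −0.11 to 0.071 (*Bcl2l11*), −0.040 to 0.091 (*Bmf*), −0.045 to 0.099 (*Cdkn1b*), −0.50 to 0.56 (*Cdkn1c*), for number 2 against numbers 1 and 3 −0.046 to 0.031 (*Stat5a*). In the contrast of number 2, added after the data were seen, 3 to 6 members were called (3 without miR-222-3p-EVs number 3). *Bcl2l11* (0.94 to 1.24), *Cdkn1b* (0.54 to 1.12) and *Icam1* (−0.66 to −0.39) were called under every alternative run for it.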
